A study of Mus musculus with 11 samples.

Results

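The interferon-inducible GTPases described here are 10 genes of 2 mouse families: the guanylate-binding proteins Gbp2, Gbp3, Gbp5, Gbp7 and Gbp9, and the immunity-related GTPases Irgm1, Irgm2, Igtp, Iigp1 and Ifi47. They were chosen by name, and all 10 have a row among the 25121 genes of the deposited table. Of these, 9 were among the 15132 genes with enough reads to be tested, and Iigp1 was not.

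RNA was measured in 11 poly(A)-selected libraries of mouse bone marrow-derived macrophages, held in the upper insert of a Transwell over proximal tubular epithelial cells, primary cells of the kidney. For 72 h they were exposed to TGF-β1 (transforming growth factor β1, a profibrotic cytokine) at 5 ng/mL, alone in 6 libraries (replicates 1 to 6) or together with 10 µM hemin, the chloride salt of oxidised heme, in 5 libraries (replicates 2 to 6). The labels give no strain, age or genotype, and they do not say whether the replicates are separate animals or cultures, so p-values here speak of the variation among these libraries and no further, and that variation may be technical. There was no group without TGF-β1 and none of macrophages alone, so an action of hemin on the macrophages cannot be told apart from one by way of the epithelial cells.

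Both families are made by macrophages in response to interferons, chiefly interferon-γ. Their promoters are known for 2 kinds of element, the GAS (gamma-activated sequence) and the ISRE (interferon-stimulated response element), of which the ISRE is bound by interferon regulatory factors. The guanylate-binding proteins are large dynamin-like GTPases that coat bacteria and the vacuoles of intracellular parasites, and in the mouse they help to expose bacterial lipopolysaccharide to caspase-11. Among the immunity-related GTPases, Iigp1 and Ifi47 belong to the effectors that load onto vacuole membranes, and Irgm1, Irgm2 and Igtp (also called Irgm3) are the regulators that keep the effectors inactive on the cell's own membranes.

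The DNA just upstream of 6 of these genes is shown because the family shares its interferon elements, and because it includes genes that fell with hemin (Gbp7, Ifi47) beside neighbours in the same clusters that did not pass the test. Each line runs 5′ to 3′ on the strand of the gene and holds the 150 bases before the RefSeq start site in build GRCm38.p6, an earlier build than the one of the deposited table. Capitals mark a match to the ISRE core, which is GAAA, any 2 bases and GAAA (TTTC, any 2 bases and TTTC when read on the other strand), or to the GAS core, TTCNNNGAA.
Gbp7: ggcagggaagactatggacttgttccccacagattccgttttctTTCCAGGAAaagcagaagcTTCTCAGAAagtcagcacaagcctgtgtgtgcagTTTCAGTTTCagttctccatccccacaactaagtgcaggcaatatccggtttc
Gbp3: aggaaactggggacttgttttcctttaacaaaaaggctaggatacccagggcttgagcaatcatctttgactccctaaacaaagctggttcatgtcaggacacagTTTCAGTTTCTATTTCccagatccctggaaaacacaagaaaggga
Ifi47: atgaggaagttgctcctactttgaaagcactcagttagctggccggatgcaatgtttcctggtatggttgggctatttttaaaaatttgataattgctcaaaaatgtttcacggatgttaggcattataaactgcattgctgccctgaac
Irgm1: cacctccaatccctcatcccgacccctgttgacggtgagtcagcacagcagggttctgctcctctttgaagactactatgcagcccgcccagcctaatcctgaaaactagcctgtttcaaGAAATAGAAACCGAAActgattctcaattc
Igtp: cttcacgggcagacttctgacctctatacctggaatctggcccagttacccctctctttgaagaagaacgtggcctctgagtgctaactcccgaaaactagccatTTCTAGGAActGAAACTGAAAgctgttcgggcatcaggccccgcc
Irgm2: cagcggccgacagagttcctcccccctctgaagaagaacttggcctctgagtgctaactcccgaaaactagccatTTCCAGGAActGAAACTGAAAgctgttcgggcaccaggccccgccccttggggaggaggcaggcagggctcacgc
The stretches are chr3:142530186-142530335 (plus strand) for Gbp7, chr3:142559894-142560043 (plus) for Gbp3, chr11:49076437-49076586 (plus) for Ifi47, chr11:48871421-48871570 (minus) for Irgm1, chr11:58199406-58199555 (plus) for Igtp and chr11:58214827-58214976 (plus) for Irgm2.

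Of the 10 members, 8 had a promoter entry of 300 bases (250 before and 50 after the start), and those of Gbp9 and Iigp1 were not analysed here. An ISRE match on either strand was present in 7 of the 8, against 3.44% of all 32851 promoters in the table. A GAS match was present in 4 of the 8 (Gbp5, Gbp7, Igtp and Irgm2), against 8.3% of all promoters. Counting the plus strand alone, the ISRE core was found in 3 of the 8 (Igtp, Irgm1 and Irgm2) and in 1.74% of all. In Gbp7 the ISRE match began at -53 from the start site and the GAS matches at -106 and -87. Gbp3 and Irgm1 each carried 2 ISRE matches that overlap, beginning at -45 and -39 in Gbp3 and at -30 and -24 in Irgm1. Gbp3 has a second promoter in the table, which held neither core. Igtp and Irgm2, neighbours on chromosome 11, had a GAS match followed by an ISRE match in both sequences, and their printed stretches shared an unbroken run of 38 bases. Among the 8, the promoter of Ifi47 was the only one with neither core. Of the members below that fell, Gbp7 had both cores, Ifi47 had neither, and the promoter of Gbp9 was not analysed. Whether the matches go with a fall was not tested, and so few genes could not show it either way. Whether these start sites are the ones in use here was not tested either.

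One library, TGF-β1 replicate 4, stood apart in several genes of the type I interferon response. Levels are given as CPM, counts scaled to library size with TMM factors. Ifnb1, which encodes interferon-β, had 59 counts there (0.826 CPM) and 0 in the other 10 libraries. Usp18, an interferon-induced protease that dampens the receptor, was at 14.8 CPM there and at most 3.62 CPM in the other libraries with TGF-β1 alone. Irf7 was at 22.9 CPM against at most 14.3 CPM. Among the GTPases, Gbp2b had 30 counts there and 0 in the other 10 libraries, and Iigp1 and Gbp4 were highest there. Better measured GTPases also ranked first there among libraries with TGF-β1 alone: Gbp7, Igtp, Gbp6, Gvin3, Irgq, 9930111J21Rik1 and 9930111J21Rik2. Others did not, among them Gbp5 at rank 5 and Iigp1c at rank 6.

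With hemin, Gbp9, Gbp7 and Ifi47 fell, and no member rose. Gbp9 was 2.31-fold lower, Gbp7 1.33-fold lower and Ifi47 1.31-fold lower than with TGF-β1 alone. Irgm1 and Irgm2 lay lower by smaller amounts that did not pass the test, and Gbp2 and Gbp3 were at nearly equal levels in both groups. The test was edgeR's quasi-likelihood F test over all 15132 genes, with Benjamini-Hochberg adjustment and a threshold of 0.05. By this rule 3 of the 9 tested members were lower, against 5.75% of all tested genes lower (870 genes) and 8.43% higher (1276 genes). DESeq2 also called 3 members lower and 0 higher, against 8.05% lower and 9.54% higher of the 14536 genes to which it gave an adjusted p. At an unadjusted edgeR p under 0.05 there were 5 members lower and 0 higher, against 11.9% and 14.0% of all tested genes. The same 3 members were also the only ones whose libraries did not overlap between groups, and 3.93% of all tested genes were lower without overlap and 6.29% higher. The median log2 fold change of the 9 members was -0.23, with 7 of them below 0. The median of all 15132 tested genes was -0.0025, with 7638 of them below 0. With library totals as the only scaling, which moved the median of all genes to -0.12, 5 members were lower, and over all genes 2487 (16.4%) were lower and 734 (4.85%) higher.

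**Figure D1:**
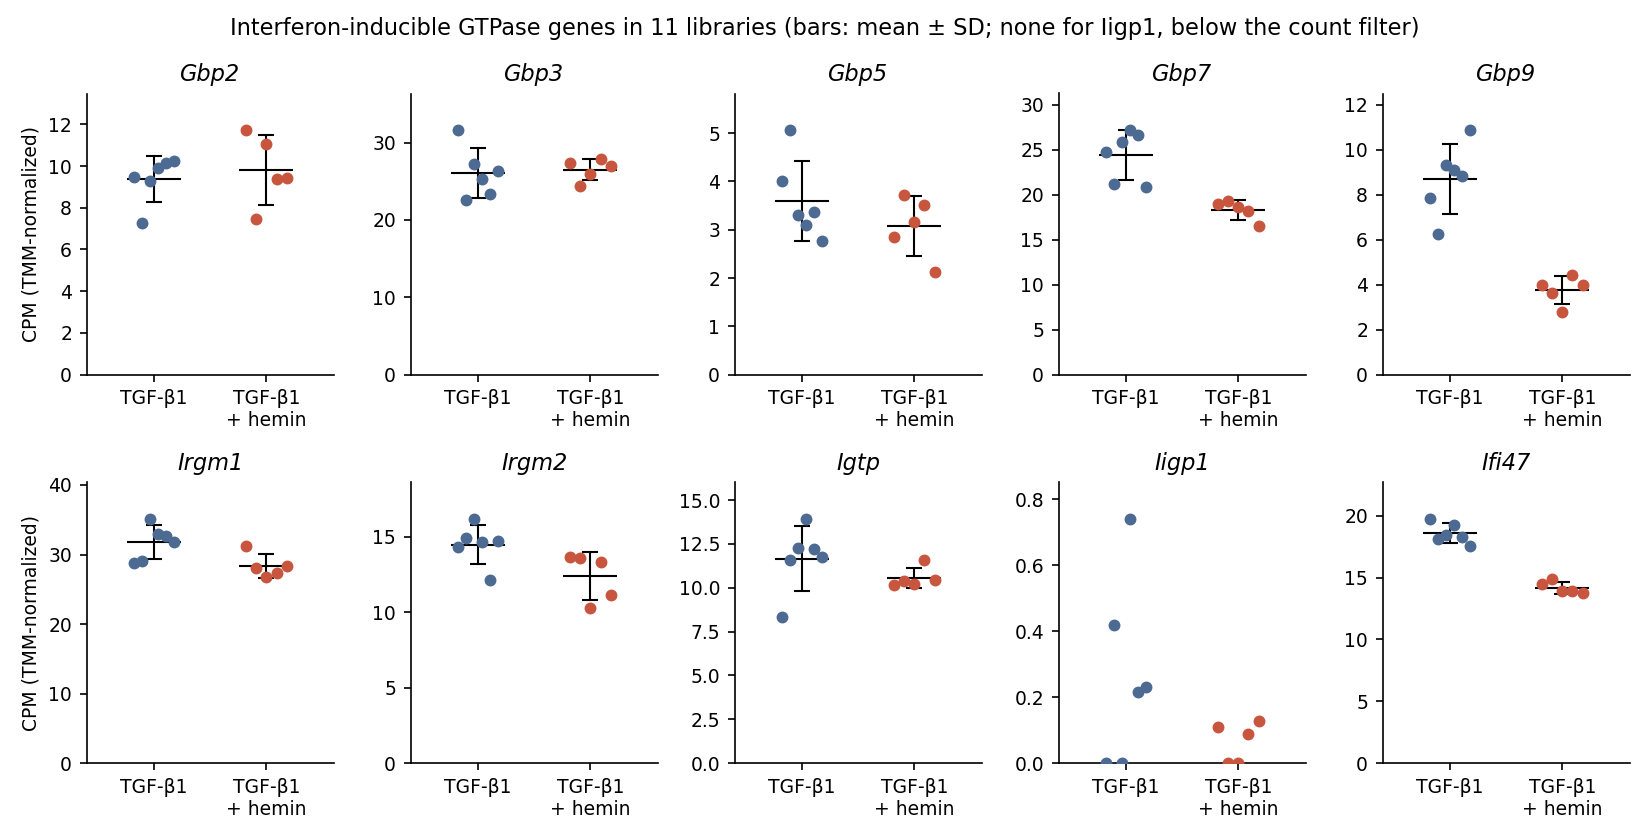
CPM of each of the 10 member genes in 6 libraries with TGF-β1 alone (blue) and 5 with TGF-β1 and hemin (red); each point is 1 library, horizontal lines are means and bars are SD, left out for Iigp1, which was not tested. The points of the 2 groups do not overlap for Gbp7, Gbp9 and Ifi47, and they overlap for the other members.

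Among the guanylate-binding proteins, Gbp9 changed most. Gbp9 lies on chromosome 5 (GRCm39, 105225496 to 105287405, minus strand; ENSMUSG00000029298) in a cluster apart from the other guanylate-binding members. Its level with TGF-β1 alone ran from 6.26 to 10.9 CPM with a median of 8.97 CPM. With hemin it was 4.00, 3.64, 2.80, 4.42 and 3.97 CPM in replicates 2 to 6. Every hemin library lay below every library with TGF-β1 alone. The means were 8.71 ± 1.54 CPM (SD, n = 6) and 3.77 ± 0.608 CPM (SD, n = 5), a log2 fold change of -1.21 (SE 0.15, 95% interval -1.52 to -0.89; edgeR adjusted p = 3.07e-05). These levels rest on 192 to 756 counts per library.

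The gene model of Gbp9 overlaps those of Gbp8 and Gbp4 on the same strand, with nearly the same start, so how reads were divided among the 3 is uncertain. The summed counts of Gbp4, Gbp8 and Gbp9 were therefore compared as well, a choice made after seeing the data. The sum was 10.4 ± 2.13 CPM (SD, n = 6) with TGF-β1 alone and 4.48 ± 0.593 CPM (SD, n = 5) with hemin. The ranges were 7.65 to 13.4 CPM and 3.47 to 4.95 CPM and did not overlap. The difference of mean log2 CPM was -1.20 (2-sided exact permutation test, 462 arrangements, p = 0.00216, the smallest value possible with 6 and 5 libraries).

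Gbp7, which in the mouse has been linked to assembly of the phagocyte NADPH oxidase, lies on chromosome 3 (142236103 to 142255910, plus strand; ENSMUSG00000040253). Its level with TGF-β1 alone ran from 20.8 to 27.2 CPM with a median of 25.3 CPM. The hemin libraries, replicates 2 to 6, held 19.0, 19.3, 18.6, 18.2 and 16.5 CPM. The hemin libraries were all lower, with a narrow gap between the highest hemin and the lowest TGF-β1 library. The means were 24.4 ± 2.76 CPM (SD, n = 6) and 18.3 ± 1.08 CPM (SD, n = 5), a log2 fold change of -0.41 (SE 0.08, 95% interval -0.59 to -0.24; edgeR adjusted p = 0.00282). A processed pseudogene, Gm43802, lies inside the Gbp7 model on the same strand and holds 28 counts over all 11 libraries, against 1219 to 1983 counts per library for Gbp7.

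Gbp3, Gbp2 and Gbp5 lie in the same chromosome 3 cluster as Gbp7, and none of them passed the test. Gbp3 (142265787 to 142278970; ENSMUSG00000028268) ran from 22.6 to 31.6 CPM with TGF-β1 alone, median 25.8 CPM. With hemin Gbp3 was 27.4, 24.4, 25.9, 27.8 and 26.9 CPM in replicates 2 to 6. All 5 hemin values fell inside the range of the other group, and the log2 fold change was 0.03 (95% interval -0.15 to 0.20; edgeR adjusted p = 0.898).

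Gbp2 (142326363 to 142343769; ENSMUSG00000028270), which carries a prenylation site at its C-terminus and is among the best studied mouse members against Toxoplasma, ran from 7.25 to 10.2 CPM with TGF-β1 alone, median 9.70 CPM. In hemin replicates 2 to 6 it was 11.7, 7.47, 11.1, 9.38 and 9.43 CPM. The hemin libraries reached above the other group in replicates 2 and 4 and were at its lower end in replicate 3. The log2 fold change was 0.06 (95% interval -0.20 to 0.32; edgeR adjusted p = 0.820). For Gbp2 and Gbp3 the sign depended on the scaling: with library totals alone they stood at -0.056 and -0.088, and neither passed.

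Gbp5 (142199739 to 142228105; ENSMUSG00000105504), linked in mouse macrophages to assembly of the NLRP3 inflammasome, was the lowest tested member. It ran from 2.77 to 5.06 CPM with TGF-β1 alone, median 3.33 CPM. With hemin it was 2.85, 3.73, 3.16, 3.51 and 2.13 CPM in replicates 2 to 6. Hemin replicate 6 lay below the other group and the other 4 hemin libraries within it, and the log2 fold change of -0.23 had a wide interval (-0.62 to 0.17; edgeR adjusted p = 0.505). Of the 5 guanylate-binding members, 2 were thus lower and 0 higher, with a median of -0.23.

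Ifi47 (also called Irgd), an effector of the immunity-related GTPases, was the most even member across libraries and the one immunity-related GTPase that passed. It lies on chromosome 11 (48967414 to 48987801, plus strand; ENSMUSG00000078920). With TGF-β1 alone it ran from 17.6 to 19.8 CPM, median 18.3 CPM. In hemin replicates 2 to 6 it was 14.5, 14.9, 13.9, 13.9 and 13.7 CPM. The groups were well separated relative to their spread. The means were 18.6 ± 0.810 CPM (SD, n = 6) and 14.2 ± 0.471 CPM (SD, n = 5), a log2 fold change of -0.39 (SE 0.07, 95% interval -0.53 to -0.25; edgeR adjusted p = 0.000616). The model of Ifi47 overlaps the olfactory receptor gene Or2v1 on the same strand, which holds 693 counts over all libraries, and the pseudogene Gm12188 on the other strand, which holds 15. Ifi47 itself had 929 to 1447 counts in each library.

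The regulators Irgm1, Irgm2 and Igtp lay below the other group on average without passing, with a median log2 fold change of -0.16 and 0 of 3 called in either direction. Irgm1 (chromosome 11, 48752795 to 48762510, minus strand; ENSMUSG00000046879), known for its part in mitochondrial turnover and autophagy, ran from 28.8 to 35.2 CPM with TGF-β1 alone, median 32.3 CPM. With hemin Irgm1 was 31.3, 28.1, 26.7, 27.3 and 28.4 CPM in replicates 2 to 6. Hemin replicate 2 lay inside the range of the other group, and the other 4 hemin libraries lay below it. The log2 fold change was -0.16 (SE 0.07, 95% interval -0.31 to -0.02; edgeR adjusted p = 0.131).

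Irgm2 (chromosome 11, 58105834 to 58113608, plus strand; ENSMUSG00000069874) ran from 12.2 to 16.2 CPM with TGF-β1 alone, median 14.7 CPM. The hemin libraries, replicates 2 to 6, held 13.7, 13.6, 10.3, 13.3 and 11.1 CPM. Hemin replicates 4 and 6 were below every library with TGF-β1 alone, and replicates 2, 3 and 5 were not. The log2 fold change was -0.23 (SE 0.10, 95% interval -0.43 to -0.02; edgeR adjusted p = 0.157). Irgm1 and Irgm2 passed with library totals as the only scaling (edgeR adjusted p = 0.0161 and 0.0290).

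Igtp (chromosome 11, 58090382 to 58098417, plus strand; ENSMUSG00000078853) ran from 8.32 to 13.9 CPM with TGF-β1 alone, median 12.0 CPM. With hemin it was 10.1, 10.4, 10.2, 11.6 and 10.4 CPM in replicates 2 to 6. All hemin values lay within the wider range of the other group, with a log2 fold change of -0.14 (95% interval -0.38 to 0.09; edgeR adjusted p = 0.468).

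Iigp1 (also called Irga6; chromosome 18, 60509099 to 60525172, plus strand; ENSMUSG00000054072), the effector that coats the Toxoplasma vacuole, was close to undetected. Its counts with TGF-β1 alone were 0, 28, 0, 53, 16 and 16 in replicates 1 to 6. With hemin they were 7, 0, 0, 8 and 12 in replicates 2 to 6. Both groups held libraries with 0 counts, and the gene stayed below the filter, so no test was made.

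The members that fell did not stand apart in TGF-β1 replicate 4: among the 6 libraries with TGF-β1 alone it had rank 3 for Gbp9, rank 2 for Ifi47 and rank 1 for Gbp7, at 27.2 CPM beside 26.7 CPM in the next highest. Without TGF-β1 replicate 4 the same 3 members were lower, with log2 fold changes of -1.19 for Gbp9, -0.38 for Gbp7 and -0.38 for Ifi47.

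The members also differed in level, which is compared per transcript length as FPKM, fragments scaled by transcript length and library size by the authors. With TGF-β1 alone the order from high to low was Gbp3, Ifi47, Igtp, Irgm1, Gbp7, Irgm2, Gbp2, Gbp9, Gbp5 and Iigp1. Mean FPKM ran from 7.69 ± 0.963 (SD, n = 6) for Gbp3 to 0.518 ± 0.104 (SD, n = 6) for Gbp5 among the tested members, and was 0.0444 for Iigp1. Neighbours in that order overlapped between libraries down to Gbp2, while Gbp9 stood below Gbp2, Gbp5 below Gbp9 and Iigp1 below Gbp5 without overlap. With hemin, Gbp3 at 7.26 ± 0.368 FPKM (SD, n = 5) stood above Ifi47 at 5.13 ± 0.237 FPKM (SD, n = 5) without overlap, whereas with TGF-β1 alone those neighbours overlapped. With hemin Gbp7 moved from the fifth to the seventh place by mean, below Gbp2 and Irgm2. The ranges of Gbp7 overlapped with those of Gbp2 and Irgm2 in both groups, so their order is not resolved. Gbp9 with hemin, at 0.651 ± 0.111 FPKM (SD, n = 5), overlapped with Gbp5, at 0.413 ± 0.0847 FPKM (SD, n = 5). The summed FPKM of all 10 members was 34.7 to 42.7 with TGF-β1 alone and 30.1 to 33.6 with hemin. Divided by each library's TMM factor, the sums were 34.88 to 40.41 and 32.35 to 34.96, which overlap.

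Whether the members moved by different amounts was asked within libraries, where scaling cancels, as the log2 ratio of the counts of 2 members, a comparison chosen after seeing the data. Of 36 pairs of the 9 tested members, 11 differed between groups (2-sided exact permutation tests over 462 arrangements, Benjamini-Hochberg adjustment over the 36 pairs, threshold 0.05). Of 18 pairs of a member that fell with one that did not pass, 9 differed, and of 15 pairs of members that did not pass, 0 did. The ratios come from the same libraries as the calls above and largely restate them. The share over pairs of other genes was not computed. Gbp9 fell relative to every member except Gbp5. Its log2 ratio to Gbp7 went from -1.50 ± 0.290 (SD, n = 6) to -2.30 ± 0.285 (SD, n = 5), a change of -0.80 (exact permutation p = 0.00216, adjusted 0.0156). The ratio of Gbp9 to Gbp2 changed by -1.26 and that to Gbp3 by -1.24 (exact permutation p = 0.00216, adjusted 0.0156 for each). Against Gbp5 the change of -0.98 missed the threshold (exact permutation p = 0.0195, adjusted 0.0519). The ratio of Gbp3 to its cluster neighbour Gbp7 rose by 0.44 (exact permutation p = 0.0108, adjusted 0.0390), and that of Gbp2 to Gbp7 by 0.46 (exact permutation p = 0.0152, adjusted 0.0496). The ratio of Irgm1 to Ifi47 rose by 0.23 (exact permutation p = 0.00649, adjusted 0.0260). The log2 ratio of Gbp7 to Ifi47 was 0.39 ± 0.140 (SD, n = 6) and 0.37 ± 0.0595 (SD, n = 5), a change of -0.02 that is smaller than either SD (exact permutation p = 0.751, adjusted 0.832).

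**Figure D2:**
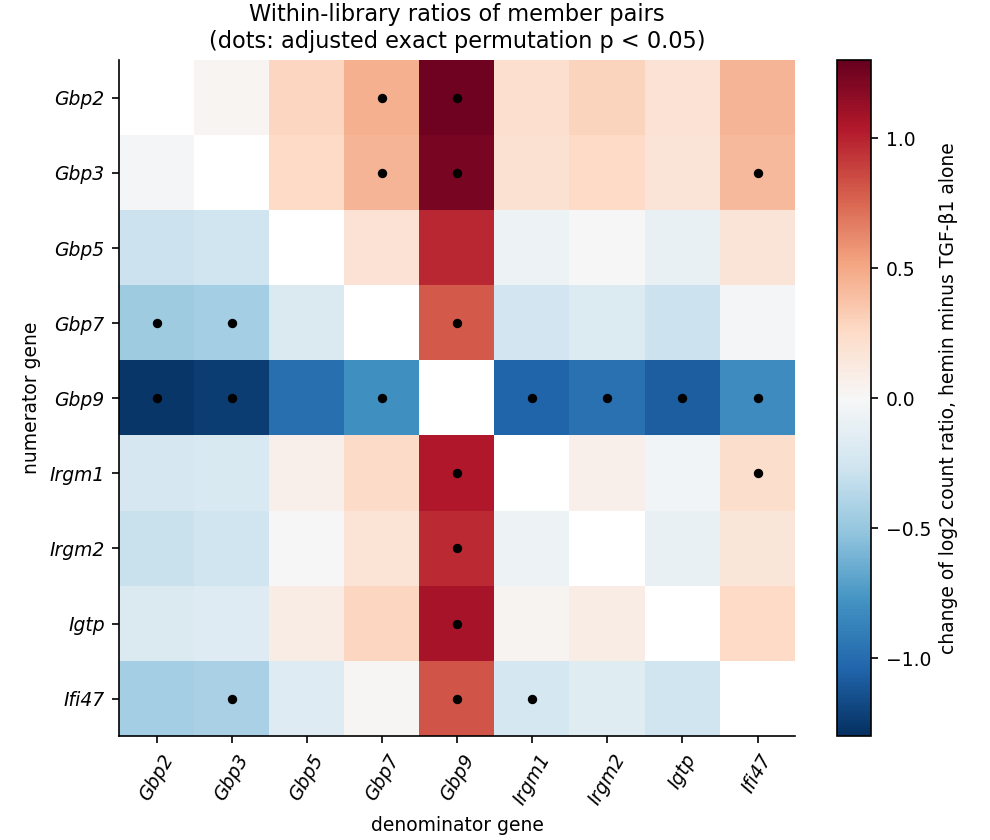
Change of the log2 ratio of counts of each row gene to each column gene, mean of 5 hemin libraries minus mean of 6 libraries with TGF-β1 alone, as colour, with dots at an adjusted exact permutation p under 0.05. Gbp9 has dots against 7 of the 8 other members.

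The wider families were read next. Of 27 further GTPase names listed, 18 had a row with a value and the others were not analysed here. Of these, 14 were tested. All 14 had a log2 fold change below 0, with a median of -0.68, and 7638 of all 15132 tested genes were below 0. The sign is poorly fixed for the low genes Gbp10 and Gbp11, with 95% intervals of -2.79 to 1.84 and -2.49 to 1.89. Gbp8 overlaps the member Gbp9, and reads shared among other close relatives were not tested, so the 14 may not be separate measurements. Of the 14 genes 6 were lower and 0 higher at an edgeR adjusted p under 0.05 (5.75% and 8.43% of all tested genes). At an unadjusted p under 0.05, 10 were lower and 0 higher (11.9% and 14.0% of all tested genes). DESeq2 called 8 lower and 0 higher (8.05% and 9.54% of all genes). With 1 library left out, 4 to 7 were lower by the edgeR adjusted p. The very large interferon-inducible GTPases had the smallest adjusted p-values among them. Gvin1 went from 69.1 ± 6.25 CPM (SD, n = 6) to 35.9 ± 2.77 CPM (SD, n = 5), a log2 fold change of -0.95 (edgeR adjusted p = 1.12e-07). Gvin2 went from 69.9 ± 6.26 CPM (SD, n = 6) to 36.1 ± 3.47 CPM (SD, n = 5), also -0.95 (edgeR adjusted p = 2.03e-07). Gvin3 went from 11.8 ± 2.34 CPM (SD, n = 6) to 6.41 ± 0.720 CPM (SD, n = 5), at -0.88 (edgeR adjusted p = 0.000211). All 3 lie on chromosome 7. Whether they share reads was not tested, so they may not be separate measurements. The other relatives that fell were Gbp8 (-1.12, edgeR adjusted p = 0.0448), Iigp1c (-1.42, edgeR adjusted p = 0.0472) and Gm12250 (-0.72, edgeR adjusted p = 0.0170), named after their values were seen. Gbp8 and Iigp1c are low genes near the threshold: of 20 alternative settings in which each was tested, Gbp8 did not pass in 10 and Iigp1c in 12, among them the fit without TGF-β1 replicate 3 for both (edgeR adjusted p = 0.0604 and 0.124). Gbp6, at -0.15 (95% interval -0.62 to 0.33), lies in the chromosome 5 cluster with Gbp9 and did not pass.

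**Figure D3:**
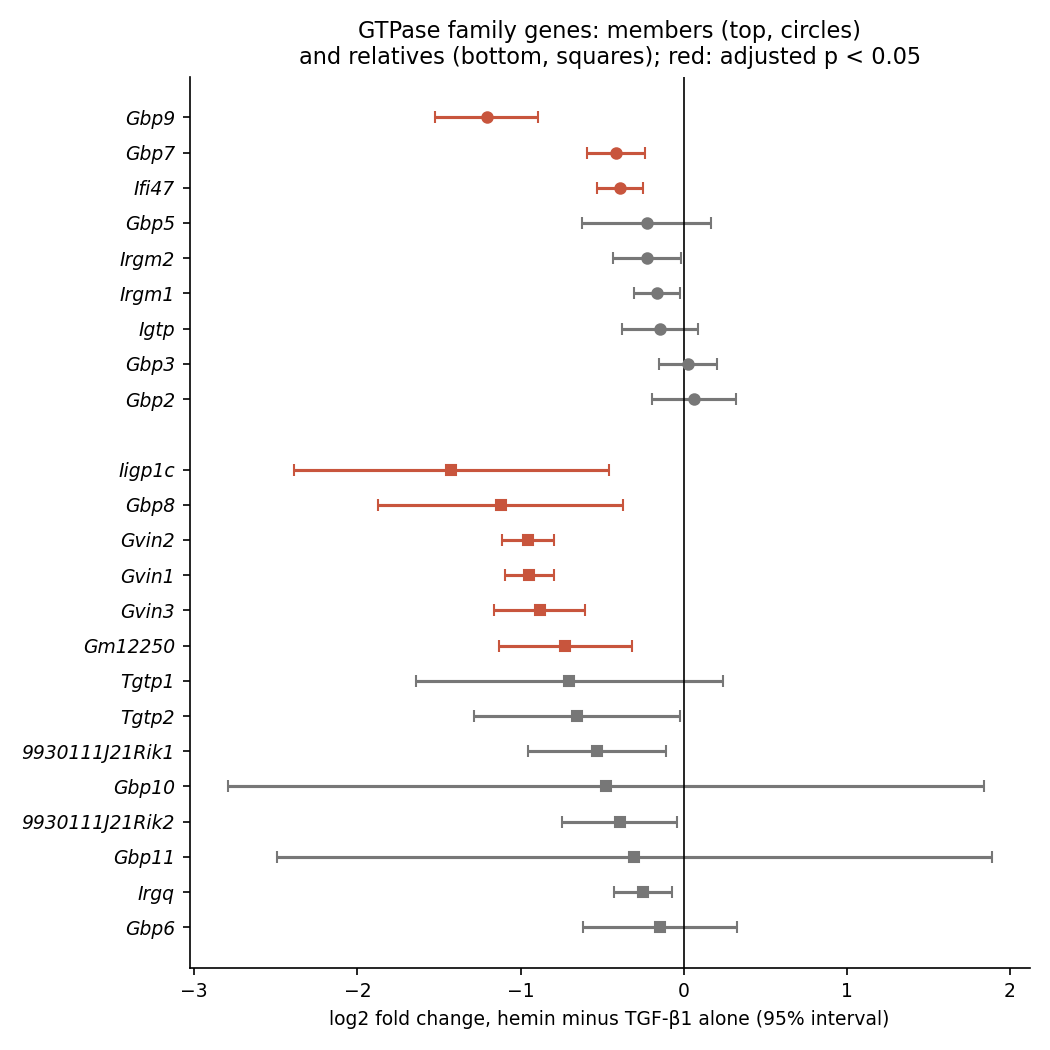
Log2 fold change, hemin minus TGF-β1 alone, with its 95% interval from edgeR, for the 9 tested members (circles, top) and 14 tested relatives (squares, bottom), red where the adjusted p was under 0.05. Gbp9, Gbp7 and Ifi47 are red among the members and 6 squares are red among the relatives, all to the left of 0.

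The genes that carry the interferon signal did not all move. Of 22 tested, 7 were lower and 1 higher with hemin (5.75% and 8.43% of all tested genes), with a median of -0.05. The receptor and kinase genes named here did not pass: Ifngr1 and Ifngr2, the chains of the interferon-γ receptor, were at 0.03 (95% interval -0.08 to 0.15) and 0.03 (-0.12 to 0.17), and Jak1 was at 0.03 (-0.05 to 0.11). With library totals alone these stood at -0.083, -0.090 and -0.086 and did not pass either. Several transcription factors of the interferon response were lower. Irf1 went from 24.4 ± 0.784 CPM (SD, n = 6) to 18.5 ± 1.67 CPM (SD, n = 5), at -0.40 (edgeR adjusted p = 0.000836). Irf9, an interferon regulatory factor of the type I interferon response, went from 34.4 ± 3.10 CPM (SD, n = 6) to 20.1 ± 2.39 CPM (SD, n = 5), at -0.77 (edgeR adjusted p = 1.12e-05). Stat2 was at -0.59 (edgeR adjusted p = 0.00488) and Stat3, the factor of the interleukin-6 and interleukin-10 receptors, at -0.37 (edgeR adjusted p = 7.81e-05). Irf7, the factor that amplifies type I interferon, went from 12.0 ± 5.81 CPM (SD, n = 6) to 3.04 ± 0.734 CPM (SD, n = 5), at -1.99 (edgeR adjusted p = 8.14e-05), and -1.70 without TGF-β1 replicate 4 (edgeR adjusted p = 2.05e-05). Socs3, a feedback inhibitor of cytokine receptors, rose from 26.8 ± 2.53 CPM (SD, n = 6) to 38.3 ± 4.32 CPM (SD, n = 5), at 0.52 (edgeR adjusted p = 0.000378). Irf1, Stat2, Ifngr1, Ifngr2 and Jak1 were named after their values were seen.

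Other targets of interferon-γ moved both ways. Of 32 tested, 7 were higher and 7 lower (8.43% and 5.75% of all tested genes), with a median of -0.04. Ifi203, a DNA-sensing family member, went from 38.4 ± 3.75 CPM (SD, n = 6) to 24.7 ± 2.00 CPM (SD, n = 5), at -0.64 (edgeR adjusted p = 2.50e-05). Samhd1, which hydrolyses deoxynucleotides, was at -0.21 (edgeR adjusted p = 0.00166) and Wars1, the tryptophanyl-tRNA synthetase, at -0.27 (edgeR adjusted p = 0.00416). In the other direction Acod1, which makes itaconate, rose from 4.95 ± 2.62 CPM (SD, n = 6) to 57.7 ± 1.74 CPM (SD, n = 5), at 3.54 (edgeR adjusted p = 1.06e-07). Ly6a, a surface antigen, rose from 4.24 ± 0.544 CPM (SD, n = 6) to 17.3 ± 2.87 CPM (SD, n = 5), at 2.03 (edgeR adjusted p = 1.20e-08). Cd274, which encodes PD-L1, was at 0.55 (edgeR adjusted p = 8.80e-05). The direction of this list was not stable to scaling: with library totals alone 12 were lower and 6 higher. Without TGF-β1 replicate 3, and likewise without hemin replicate 5, 4 were lower.

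**Figure D4:**
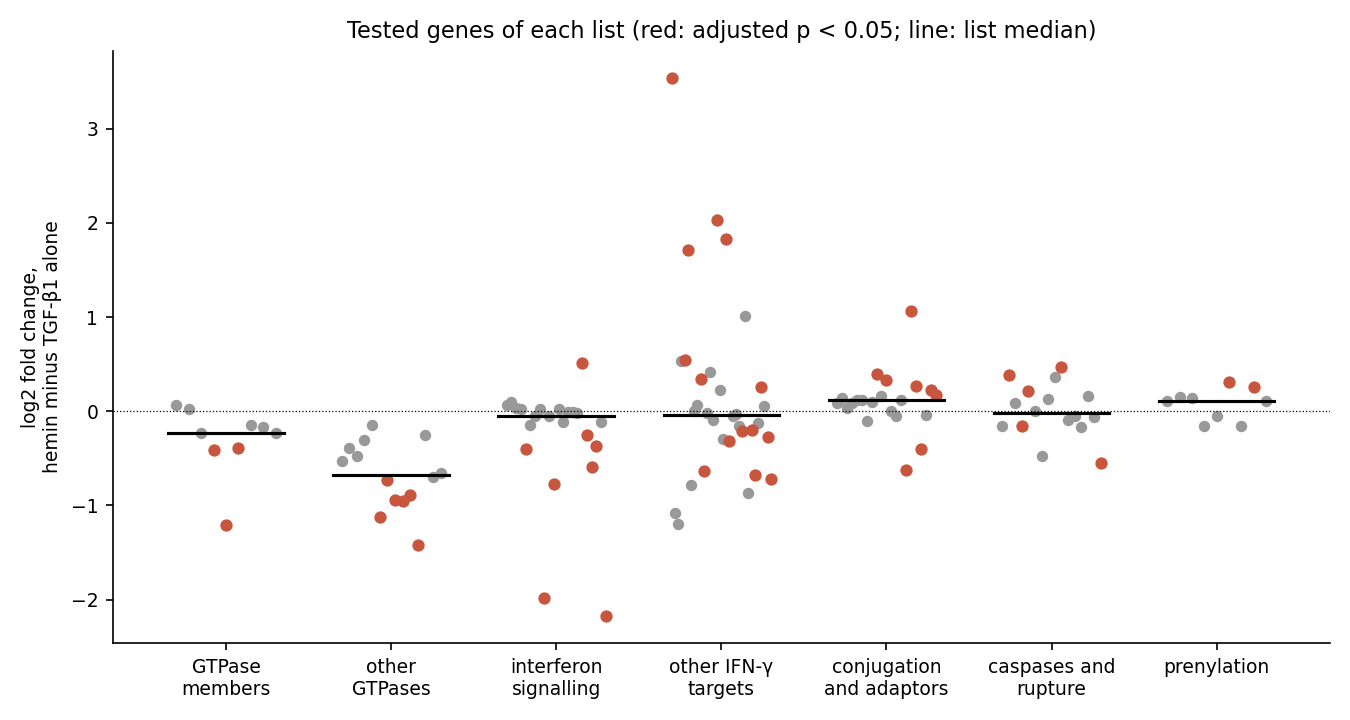
Log2 fold change, hemin minus TGF-β1 alone, of every tested gene in 7 lists; each point is 1 gene, red where the edgeR adjusted p was under 0.05, and the line is the list's median. The medians are -0.23 for the members and -0.68 for the other GTPases, and between -0.05 and 0.12 for the other 5 lists.

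The proteins that place the GTPases on their targets, act after them or attach their lipid were measured too. The GTPases need the autophagy-related conjugation system, ubiquitin and its adaptors in order to find vacuoles. Of 21 tested genes for these, 6 were higher and 2 lower (8.43% and 5.75% of all tested genes), with a median of 0.12. Sqstm1, the adaptor p62, rose by 1.06 on the log2 scale (edgeR adjusted p = 6.18e-10), Gabarapl1, a relative of LC3, by 0.39 (edgeR adjusted p = 6.54e-05), and the adaptor Tax1bp1 by 0.27 (edgeR adjusted p = 0.00272). Tax1bp1 did not pass in 3 of 24 alternative settings, all of limma on FPKM (limma adjusted p of 0.0599 to 0.113). The ubiquitin ligases Traf6 and Rnf213 were lower, at -0.40 (edgeR adjusted p = 0.00137) and -0.63 (edgeR adjusted p = 0.00656). With library totals alone 3 were higher and 2 lower.

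Of 16 tested genes for caspases, their sensors and membrane rupture, 3 were higher and 2 lower, with a median of -0.02. The shares of all tested genes were 8.43% higher and 5.75% lower. Ninj1, which ruptures the membrane of dying cells, was at 0.47 (edgeR adjusted p = 1.00e-05), Casp1 at 0.39 (edgeR adjusted p = 0.00144) and the lipopolysaccharide co-receptor Cd14 at 0.22 (edgeR adjusted p = 0.0162). Zbp1, a nucleic acid sensor, was at -0.55 (edgeR adjusted p = 0.00708) and Casp8 at -0.15 (edgeR adjusted p = 0.0203). With library totals alone 2 were higher and 5 lower, and Cd14 no longer passed. Without hemin replicate 4 neither Casp8 nor Cd14 passed (edgeR adjusted p = 0.0515 and 0.0513), and 1 gene was lower.

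Prenylation genes serve the lipid anchor of Gbp2 and Gbp5. Of 9 tested, 2 were higher and 0 lower (8.43% and 5.75% of all tested genes), with a median of 0.11. At an unadjusted edgeR p under 0.05 there were 6 higher and 0 lower (14.0% and 11.9% of all tested genes). DESeq2 called 3 higher and 0 lower (9.54% and 8.05% of all genes). Pde6d, a carrier of prenylated proteins, was at 0.31 (edgeR adjusted p = 0.00503). Rce1, the protease that trims prenylated tails, was at 0.26 (edgeR adjusted p = 0.0424) and did not pass in 16 of 24 alternative settings, among them 9 of the 11 fits without 1 library. With library totals alone 1 was higher and 2 lower.

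Libraries of 1 group showed little shared movement of the members. After removal of group means, the Pearson correlation of log2 CPM over 11 libraries ran from -0.61 to 0.63 over the 36 pairs of tested members, with a median of 0.12 and 24 pairs above 0. These are descriptions over points that share library and depth. The genes whose pattern over the 11 libraries was most like the mean of the members, out of 10389 searched, were Mark3 (r = 0.947, rho = 0.918), Ocrl (r = 0.898, rho = 0.891), Zfp324 (r = 0.872, rho = 0.918), Dhx58 (r = 0.852, rho = 0.791) and Kif4 (r = 0.848, rho = 0.836). Of these Dhx58, an interferon-induced RNA helicase, was also lower with hemin (-0.69, edgeR adjusted p = 0.00171), and the other 4 did not pass. Values this high can come from the search alone, as they are the largest of 10389 correlations over 11 libraries.

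The libraries with TGF-β1 alone held 65.5 to 71.5 M counts each, and those with hemin 66.7 to 96.6 M. All 8 macrophage markers had a value, and their summed FPKM was 3875 to 5829 with TGF-β1 alone and 4703 to 5518 with hemin. Of these 8 markers 2 were higher with hemin and 0 lower (8.43% and 5.75% of all tested genes). They were Adgre1 at 0.17 on the log2 scale (edgeR adjusted p = 0.00893) and Cd68 at 0.33 (edgeR adjusted p = 0.00139). With library totals alone Adgre1 did not pass (edgeR adjusted p = 0.438). The sum of 6 of 9 proximal tubule markers was 0.0595 to 0.892 and 0.227 to 1.17 FPKM, and that of 5 of 6 fibroblast markers 16.5 to 49.8 and 12.5 to 22.7 FPKM. Most of the fibroblast sum was Col1a1, at means of 22.7 and 12.9 FPKM, and Col1a2, at 6.27 and 3.84 FPKM. Col3a1 (1.05 and 1.09 FPKM) and Dcn (0.00248 and 0.0451 FPKM) were not lower with hemin, and Pdgfra was at 0.0697 and 0.0657 FPKM. Of 4 tested fibroblast markers 0 passed. Of the markers of T and NK cells, the known sources of interferon-γ, 1 of 8 had a value and summed to at most 0.573 FPKM. Markers of plasmacytoid dendritic cells, 2 of 4 with a value, summed to 0.583 to 1.79 FPKM with TGF-β1 alone and 1.84 to 2.61 FPKM with hemin. Cox6a2 made up nearly all of that sum, at means of 0.938 and 2.07 FPKM (edgeR adjusted p = 0.00734). Ccr9, which was not tested, went the other way, at 0.0179 and 0.00752 FPKM. The part of these differences, and of depth, in the members' results was not tested. In bulk RNA, fewer cells of a type and less RNA per cell cannot be told apart.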

How the data were processed

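RNA of 11 libraries (6 TGF-β1, 5 TGF-β1 and hemin, grouped by title) was selected for poly(A) and copied with a uracil-marked second strand, per the labels' protocols. The submitters' processing notes name HISAT2 2.2.1 and the build GRCm39, besides StringTie 2.1.6, cutadapt 1.9, FastQC 0.11.9 and DESeq2, giving them no roles. The counting tool, its strand setting and the annotation are not stated in the sources used here, so genes that overlap are uncertain. The deposited table gives each gene's raw counts (whole numbers) in each library beside FPKM values computed by the authors.

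In R 4.3.3, edgeR 4.0.16 was run on the deposited counts of all genes (filterByExpr, minimum count 10, minimum total 15; TMM scaling; 2-sided quasi-likelihood F test with no term but the group), with Benjamini-Hochberg adjustment over 15132 genes; the test was also tried on simulated data. Alternatives were DESeq2 1.42.0, other scalings and filters, robust dispersion, limma 3.58.1 on log2(FPKM + 1) or log2(FPKM + 0.1), the replicate number as a block, and each library left out in turn. Promoters and start sites are from RefSeq (GRCm38.p6). Protein sequences were not used here, so a planned search for protein motifs was not run.

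The members and gene lists were chosen with earlier results of these data known. All members are named; from each list, up to 3 genes of smallest adjusted p in each direction, and the 5 genes most like the members. Others were named after their values were seen. The likeness is the Pearson correlation of log2 CPM, group means removed, with the mean of the members' z-scores, over genes whose FPKM averaged 1 or more. Total counts were 65.5 M to 96.6 M per library. No library repeated another of its group (chi-square per degree of freedom, 27 to 186). The pairs with TGF-β1 replicate 2 had the highest values, 98.2 to 186, and the other pairs with TGF-β1 alone were at 27 to 61.4.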

Additional observations from a re-analysis of the deposited data

Results flagged for a closer look

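Within groups, 90 combinations of a group and 45 of the named genes were checked for a library far from the others by Dixon's ratio. Of these 5 were flagged, and chance flags about 1 in 20 groups. The flags do not cover every named gene with a library that stood apart. Usp18 is not among them, at 14.8 CPM in TGF-β1 replicate 4 and at most 3.62 CPM in the others of that group. Gbp2 in TGF-β1 replicate 2 was at 7.25 CPM, below the other 5 libraries of that group, which lay between 9.30 and 10.2 CPM. Igtp in hemin replicate 5 was at 11.6 CPM, above the others at 10.1 to 10.4 CPM. Cd274 in hemin replicate 4 was at 139.2 CPM, above the others at 118 to 122 CPM. Rnf213 in hemin replicate 3 was at 73.4 CPM, above the others at 46.4 to 51.4 CPM. Iigp1c in TGF-β1 replicate 3 was at 1.33 CPM, above the other 5 libraries of that group at 0.406 to 0.686 CPM.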

How the results depend on the processing

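Gbp7, Gbp9 and Ifi47 kept their direction and passed under all 24 alternatives, with log2 fold changes of -0.53 to -0.32, -1.32 to -0.61 and -0.50 to -0.34. Members lower numbered 3 in each fit without 1 library, and 5 with library totals only, with log2(FPKM + 1) and with log2(FPKM + 0.1). For the 8 members tested in every setting the median was -0.19, against -0.31 with library totals and -0.30 with log2(FPKM + 0.1), and -0.23 to -0.16 with 1 library left out. Gbp2 and Gbp3 reversed with library totals (-0.056 and -0.088), log2(FPKM + 0.1) (-0.049 and -0.074) and log2(FPKM + 1), filtered or not (-0.039 and -0.066), and ranged from -0.0077 to 0.15 and from -0.016 to 0.089 with 1 library left out. Ifngr1, Ifngr2 and Jak1 also reversed, without passing, with library totals (-0.083, -0.090 and -0.086), log2(FPKM + 0.1) (-0.076, -0.077 and -0.080) and log2(FPKM + 1), filtered or not (-0.072, -0.073 and -0.076), and Ifngr2 ranged from -0.014 to 0.067 with 1 library left out. Over all genes 2487 were lower and 734 higher with library totals, 2197 and 683 with log2(FPKM + 0.1), 2186 and 685 with log2(FPKM + 1), and 1626 and 659 with the latter unfiltered. Interferon-γ targets lower were 12 with library totals, 11 with either pseudocount, 4 with no count filter, 3 with the replicate block and 4 to 7 with 1 library left out, and those higher were 4 with either pseudocount. Conjugation genes higher were 3 with library totals and 2 unfiltered in limma. Caspase genes lower were 5 with DESeq2, library totals, either pseudocount, limma unfiltered and a mean FPKM of at least 1, 4 with median-of-ratios scaling in limma, 1 with the block and 1 to 3 with 1 library left out. Prenylation genes lower were 2 with library totals and either pseudocount and 1 unfiltered in limma; those higher were 1 in each of these, with no count filter, with the block and on its libraries without it, and 1 to 2 with 1 library left out. The cause of these changes was not tested.

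The labels do not say whether equal replicate numbers mark pairs. Same-numbered deviations from the group means correlated at -0.0948 to 0.111, and 2 of 5 correlated best with their own number. With only 5 numbers and centring within groups, this check cannot decide whether the libraries were paired. With the number as a block, 3 members were lower (Gbp9 -1.23, Gbp7 -0.40, Ifi47 -0.37). Iigp1 had at most 53 counts per library and 0 in some, so a change in it was not detectable at this depth.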
